A study of Homo sapiens with 6 samples.

Results

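SNHG1 is a long non-coding RNA gene on chromosome 11 whose introns carry a series of small nucleolar RNAs (snoRNAs). The snoRNAs of this locus were taken as the deposited rows with a RefSeq non-coding accession, a minus-strand start within or right beside the span of SNHG1 in hg19, and a RefSeq symbol beginning with SNORD. This rule found 8 rows, namely SNORD25, SNORD26, SNORD27, SNORD28, SNORD29, SNORD30, SNORD31 and SNORD22 in their order along the host gene, out of 68 SNORD rows and 3437 rows in all. Short RNA had been sequenced from Caco2 cells, an established line of colon epithelial origin, grown to confluency as wild type (Caco2 WT, 3 samples) or after CRISPR/Cas9 targeting of PIWIL2 (PIWIL2 KO, 3 samples), with no other treatment. The PIWIL2 KO cells are a single surviving clone in which the study found an unaffected PIWIL2 allele beside the edited one and a partial loss of the protein, so they model a reduced level of PIWIL2 rather than its absence. The deposited values are CPM, in which each library is scaled by its uniquely mapped reads (hg19), with 1 value per genotype and strand for the 3 samples together. The study describes the sequencing results that it plots as averages, after normalization, over 3 biological replicates. Whether the reads of the samples were joined or their values averaged in these columns was not settled from the sources used here. The read numbers and counting intervals below treat each column as 1 joined library, and they were not computed for averaged values. This table gives no replicate error and allows no test between the genotypes, reads of the single samples were not analysed here, and all comparisons are between 2 pooled values. Differences are given as values, and whether any exceeds the spread between samples was not tested.

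Box C/D snoRNAs, which the SNORD symbols denote, are short nuclear RNAs that bind a set of core proteins including the methyltransferase fibrillarin. A stretch of the snoRNA next to its D box, or next to an internal copy called D′, pairs with ribosomal RNA (rRNA) and directs 2′-O-methylation to 1 nucleotide of it. In vertebrates most of them are cut out of introns of a host transcript after splicing, and SNHG1, also known as U22HG, is a host gene whose spliced RNA codes for no protein. SNORD25, SNORD27 and SNORD28 are known as guides for the RNA of the small ribosomal subunit, and SNORD26, SNORD29, SNORD30 and SNORD31 as guides for that of the large subunit. SNORD22 (U22) is known for a part in processing the small-subunit rRNA precursor and not as a methylation guide. PIWIL2, by comparison, is an Argonaute-family protein that works with short RNAs against transposons, and no row was named for it, so its own level was not analysed here.

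The 8 sequences are shown because the boxes and guide stretches differ between members that share a host transcript. Each was read from the minus strand of GRCh37, the same assembly as hg19, from the start in the deposited row and with the length that RefSeq gives for the gene. Letters run from 5′ to 3′, and capitals mark a C box match within the first 15 bases (TGATGA, or GATGA where the longer form was missing) and the last D box match (CTGA).
SNORD25, chr11:62623037-62623103: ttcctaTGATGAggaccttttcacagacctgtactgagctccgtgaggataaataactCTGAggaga
SNORD26, chr11:62622764-62622838: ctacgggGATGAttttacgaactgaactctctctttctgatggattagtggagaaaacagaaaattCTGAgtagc
SNORD27, chr11:62622484-62622555: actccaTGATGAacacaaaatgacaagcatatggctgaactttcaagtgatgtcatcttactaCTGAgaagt
SNORD28, chr11:62622093-62622167: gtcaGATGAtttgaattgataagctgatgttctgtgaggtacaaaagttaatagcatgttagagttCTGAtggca
SNORD29, chr11:62621376-62621440: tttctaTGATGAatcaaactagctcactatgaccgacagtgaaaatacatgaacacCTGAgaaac
SNORD30, chr11:62621135-62621204: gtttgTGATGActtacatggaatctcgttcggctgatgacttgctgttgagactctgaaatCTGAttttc
SNORD31, chr11:62620798-62620865: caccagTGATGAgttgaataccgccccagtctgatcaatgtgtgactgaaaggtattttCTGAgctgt
SNORD22, chr11:62620382-62620507: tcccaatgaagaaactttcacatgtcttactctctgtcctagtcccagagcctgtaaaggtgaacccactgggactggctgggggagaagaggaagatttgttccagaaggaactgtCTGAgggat

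All 8 sequences held CTGA in their last 15 bases, against 86.0% of the 57 different sequences of the other SNORD rows, when the strand of the snoRNA was searched. TGATGA stood in the first 15 bases of 5 of the 8, against 50.9% of the other sequences, and the shorter GATGA, which every TGATGA contains, in 7 of the 8, against 59.6%. SNORD26 and SNORD28 held only the shorter form, and SNORD22 held neither in this window. With lengths of 65 to 75 bases, 7 of the 8 lay below the median of 77.0 bases of the other SNORD sequences, while SNORD22 was 126 bases long. GC content ran from 36.0% in SNORD28 to 49.2% in SNORD22. No other place in GRCh37 matched a member over at least 90% of its length at 90% identity or more. Among the hits that the BLAST search reported, the longest stretch without a mismatch elsewhere was between 16 bases for SNORD30 and 26 bases for SNORD26 and SNORD28. The search leaves out short matches below its reporting limit, so these lengths are lower bounds. Reads shorter than such a stretch could come from either place.

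Guide stretches of at least 12 bases were searched as perfect complements to the unplaced contig of GRCh37 that carries ribosomal DNA, ending between 2 bases before a CTGA and 1 base inside it. Only the plus strand of the contig was searched. Such a stretch was present in 5 of the 8 members and in 29.8% of the other SNORD sequences, and each of the 5 matched the contig at 2 places. The 5 stretches are shown as the part of each snoRNA that can pair with rRNA.
SNORD25 guide: TCACAGACCTGT
SNORD26 guide: TGAACTCTCTCTT
SNORD27 guide: GACAAGCATATG
SNORD30 guide: GGAATCTCGTTC
SNORD31 guide: TACCGCCCCAGTC
In the first copy on the contig, the complement of the SNORD27 stretch started at base 109101 and that of SNORD25 at base 110564. Those of the large-subunit guides SNORD26, SNORD30 and SNORD31 followed at bases 113742, 117170 and 117538. The small-subunit guides thus matched ahead of the large-subunit guides, which is the order of these rRNAs in their common precursor. SNORD28, SNORD29 and SNORD22 had no stretch that met this rule, which says only that no perfect complement of this length lies at that position.

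Every member lay in an intron of its own in SNHG1, which GENCODE release 44 places at chr11:62619450-62623425 on the minus strand. Of 80 annotated SNHG1 transcripts, 10 put all 8 snoRNAs into separate introns, and the Ensembl canonical one, with 11 exons, was used for distances. SNORD25 lay in intron 1, SNORD26 in intron 2, SNORD27 in intron 3, SNORD28 in intron 4, SNORD29 in intron 6, SNORD30 in intron 7, SNORD31 in intron 8 and SNORD22 in intron 9. For 6 of them the 3′ end was 69 to 75 bases from the 3′ splice site. SNORD25 stood 98 bases and SNORD31 210 bases away from it. No deposited row was named for SNHG1, so the spliced host RNA itself was not analysed here.

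On the sense strand all 8 snoRNAs gave short RNA in both genotypes, and their levels differed widely although they are cut from introns of the same gene. Reads of the SE50 sequencing strategy are shorter than the shortest member, so that no read spans a whole snoRNA. Whether the reads came from pieces of a snoRNA or from whole molecules was not analysed here. Each value is given with a 95% exact Poisson interval in brackets, computed on reads estimated from the CPM worth of 1 read (0.0776 in Caco2 WT and 0.0738 in PIWIL2 KO). The intervals cover counting error only, since amplified reads that carry no molecular identifier need not stem from different molecules. These worths correspond to about 12900000 and 13600000 uniquely mapped reads.

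Among the guides for the small subunit, SNORD27 was listed at 122.71 CPM in Caco2 WT (117 to 129) and, in PIWIL2 KO, at 173.01 CPM (166 to 180). SNORD25 was listed at 30.48 CPM (27.6 to 33.7) and 45.84 CPM (42.3 to 49.6). SNORD28 was listed at 4.19 CPM (3.15 to 5.47) and 14.25 CPM (12.3 to 16.4), which made it the lowest of the 8 in Caco2 WT but not in PIWIL2 KO. The intervals of the genotypes did not overlap for any of these 3.

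Among the guides for the large subunit, SNORD30 was listed at 458.66 CPM in Caco2 WT (447 to 471) and, in PIWIL2 KO, at 606.57 CPM (594 to 620). SNORD31 was listed at 380.86 CPM (370.3 to 392) and 684.22 CPM (670.3 to 698). SNORD30 was therefore the higher of this pair in Caco2 WT and SNORD31 the higher in PIWIL2 KO. SNORD26 was listed at 98.82 CPM (93.4 to 104) and 158.32 CPM (152 to 165). SNORD29, which lies between SNORD28 and SNORD30, was listed at 6.36 CPM (5.06 to 7.90) and 12.92 CPM (11.1 to 14.98). As with the small-subunit guides, no interval of Caco2 WT overlapped that of PIWIL2 KO. SNORD22, the member outside the methylation guides, was listed at 7.91 CPM (6.45 to 9.61) and 7.60 CPM (6.20 to 9.22), and here the intervals overlapped almost fully.

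**Figure D1:**
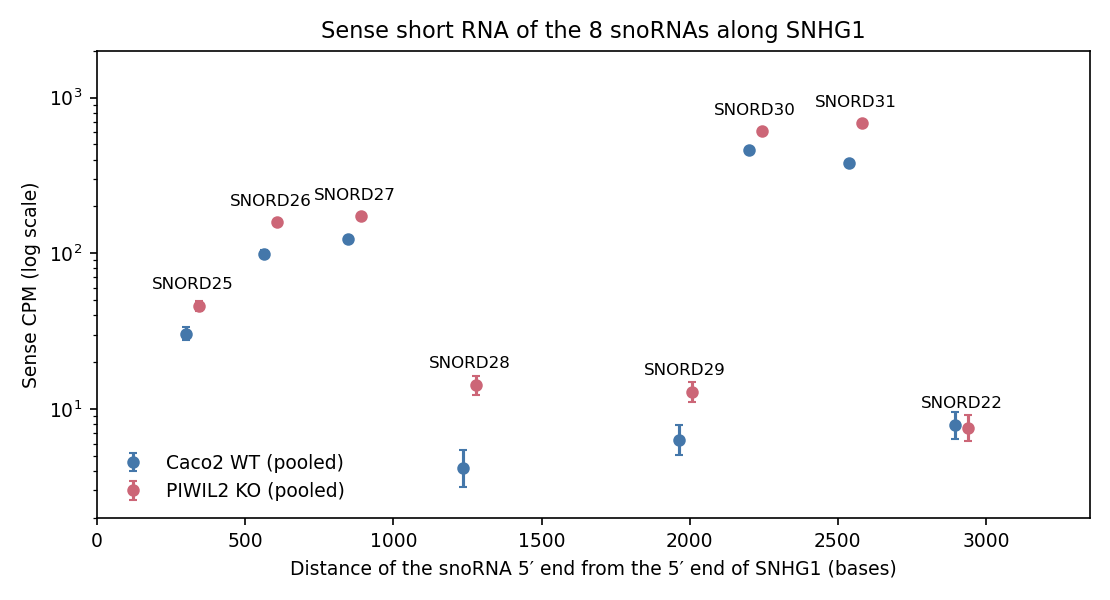
Sense CPM on a log scale of each snoRNA in Caco2 WT and PIWIL2 KO, 1 pooled value per genotype, against its distance in bases from the 5′ end of SNHG1, with points of the genotypes set slightly apart and bars for the 95% counting interval. SNORD30 and SNORD31 stood above 370 CPM in both genotypes, while SNORD28, SNORD29 and SNORD22 stayed under 17 CPM, in runs of abundant and scarce members along the gene.

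Along the host gene the levels had no single direction, since the 3 members nearest its 5′ end ran from 30.48 to 122.71 CPM in Caco2 WT, the following 2 stood at 4.19 and 6.36 CPM, the next 2 were the most abundant, and the last one stood at 7.91 CPM. Neighbours in the gene could differ widely: SNORD29 had 0.0139 times the CPM of SNORD30 in Caco2 WT (counting interval 0.0110 to 0.0172), although their introns are separated by 1 exon. SNORD22 had 0.0208 times the CPM of SNORD31 (0.0169 to 0.0253).

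To compare levels between genes of unlike length, CPM was divided by length, and this scale is used for the order of the members. Whether reads of these short RNA libraries scale with gene length was not tested. By CPM alone, SNORD22 stood above SNORD29 in Caco2 WT, at 7.91 against 6.36. In PIWIL2 KO, SNORD28 stood above SNORD29 by CPM, at 14.25 against 12.92. In Caco2 WT it ran from 6.55 CPM per base for SNORD30, through 5.60 for SNORD31, 1.70 for SNORD27, 1.32 for SNORD26, 0.455 for SNORD25, 0.0978 for SNORD29 and 0.0628 for SNORD22, to 0.0559 for SNORD28, a 117-fold range. Of the neighbours in this order, only SNORD22 and SNORD28 had overlapping counting intervals. In PIWIL2 KO the order began with SNORD31 at 10.1 CPM per base and SNORD30 at 8.67, kept SNORD27, SNORD26, SNORD25 and SNORD29 in their places at 2.40, 2.11, 0.684 and 0.199, and ended with SNORD28 at 0.190 and SNORD22 at 0.0603. There, SNORD29 and SNORD28 overlapped. The order thus differed between genotypes in 2 places, at its top and at its bottom. The 3 members without the perfect complement to ribosomal DNA described above were the 3 lowest per base in both genotypes, which is a description over 8 sequences of 1 locus and was not tested.

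On the antisense strand all 8 members were listed at 0 CPM in both genotypes. For each snoRNA, a count of 0 cannot tell absence from as many as 3 reads, which is 0.233 CPM for Caco2 WT and 0.221 for PIWIL2 KO. None of the 68 SNORD rows had antisense CPM, against 175 of the 3437 deposited rows.

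The comparison of PIWIL2 KO with Caco2 WT was made on the sense strand, as the ratio of the CPM values with an exact (Clopper-Pearson) 95% counting interval. Of the 8 members 7 were higher in PIWIL2 KO, with intervals above 1, but 6 when both genotypes were rescaled to the summed sense CPM of all deposited rows and 4 when values were centred on the median SNORD row. SNORD22 was lower, with an interval that holds 1. Rows were counted where the genotypes averaged 0.3 CPM or more, which all 8 members did, as did 161 of all rows and 64 of the SNORD rows. Of these, 68.9% of all rows and 89.1% of SNORD rows were higher in PIWIL2 KO, so the members' 87.5% is close to the share of SNORD rows. These shares count rows that were higher, whatever their interval. How many other rows had an interval above 1, or separate intervals for the genotypes, was not counted. Such separation is therefore not a trait shown to be particular to the members. SNORD28 had the largest ratio, 3.40 (2.50 to 4.69), on 54 and 193 estimated reads. SNORD29 followed at 2.03 (1.55 to 2.67), SNORD31 at 1.80 (1.74 to 1.86), SNORD26 at 1.60 (1.49 to 1.72), SNORD25 at 1.504 (1.32 to 1.71), SNORD27 at 1.41 (1.32 to 1.504) and SNORD30 at 1.32 (1.28 to 1.37). SNORD22 had a ratio of 0.961 (0.723 to 1.28). Ratios of the small-subunit guides, 1.41 to 3.40, and of the large-subunit guides, 1.32 to 2.03, overlapped.

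Fold changes were also taken as log2 of CPM plus 0.1, which slightly understates changes of low rows. On this scale 2 members, SNORD28 and SNORD29, were at least 2-fold higher in PIWIL2 KO and none was 2-fold lower, beside 27.3% of all rows and 37.5% of SNORD rows past the minimum that were at least 2-fold higher. SNORD29 lay just inside this limit, at a log2 ratio of 1.01, and SNORD31 was the next below it, at 0.85. Both members past the limit were scarce. Among the members the limit was passed by 2 of 3 that averaged under 10 CPM and by 0 of 5 above this level, a boundary chosen after the values were seen. Among the other SNORD rows past the minimum it was passed by 17 of 29 under that level and by 5 of 27 above it.

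**Figure D2:**
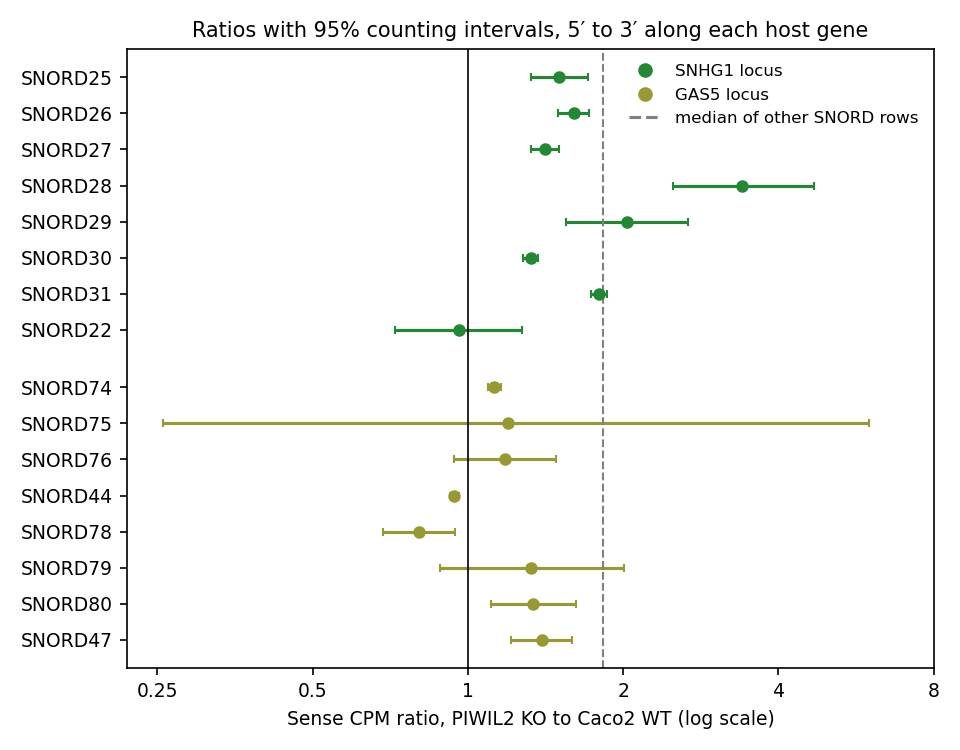
Ratio of sense CPM in PIWIL2 KO to that in Caco2 WT, on a log scale, for the 8 snoRNAs of SNHG1 and the 8 of GAS5, each set in order from the 5′ end of its host gene, with bars for 95% counting intervals. With CPM as deposited, all SNHG1 members but SNORD22 lie to the right of 1 (under the rescaling to all rows SNORD30 would not), and SNORD28 lies farthest, at 3.40, while the GAS5 members lie between 0.804 and 1.39. The dashed line is the median of the other SNORD rows.

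Together the 8 rows held 1110 sense CPM in Caco2 WT, and in PIWIL2 KO they held 1703, a ratio of 1.53 (1.502 to 1.57) and a log2 ratio of 0.62. The size, and with the centring also the sign, depends on the scaling. The log2 ratio was 0.19 with the rescaling to all deposited rows and -0.01 with the centring on the median SNORD row. The rescaling moved every log2 ratio by -0.43, and the centring by -0.63. Neither reference is independent of the members. The SNORD median includes them, and they held 20.1% of the summed sense CPM of all rows in Caco2 WT and 23.0% in PIWIL2 KO. The median log2 ratio was 0.63 over the members, 0.63 over all 64 SNORD rows and 0.48 over all 161 rows past the minimum. By the median the locus thus did not stand above SNORD rows in general. By the sum, its 1.53 lay above the 1.33 (1.31 to 1.34) of the other 60 SNORD rows together, but these were not alike. The 8 rows of GAS5, a host gene described below, had 1.01 (0.991 to 1.02). The remaining 52 SNORD rows had 1.90 (1.86 to 1.94), which is above the locus, but much of their summed rise lay in SNORD17, as given below. In CPM, which are shares of the mapped reads, a rise of these rows and a fall of other RNA cannot be told apart.

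As a share of all SNORD sense CPM, the locus held 25.4% in Caco2 WT and 28.2% in PIWIL2 KO. The GAS5 rows held 48.0% and 35.1%, and the remaining 52 SNORD rows 26.6% and 36.7%. The share of the locus thus rose beside a falling GAS5 share, and by less than that of the remaining rows as a group. Single rows weighed heavily on both groups. Among the remaining rows, SNORD17 alone moved from 174.3 (Caco2 WT) to 759.65 CPM (PIWIL2 KO). Most of the GAS5 CPM lay in SNORD44, which moved from 1357.5 to 1277.2. Shares without these rows were not computed, so whether the comparison holds without them was not settled. Within the locus, SNORD30 and SNORD31 together held 75.6% in Caco2 WT and 75.8% in PIWIL2 KO, and they made up 76.1% of the difference between the genotypes. SNORD30 took 41.3% of the locus in Caco2 WT (exact binomial 95% interval 40.5 to 42.1) and 35.6% in PIWIL2 KO (35.0 to 36.2). SNORD31 took 34.3% (33.5 to 35.1) and 40.2% (39.6 to 40.8). The pair thus exchanged places at a nearly constant share of the locus. In deposited CPM both were higher in PIWIL2 KO, together at 1290.8 against 839.52 in Caco2 WT. The ratio of SNORD31 to SNORD30, which no scaling of the 2 pooled columns can move, was 0.830 in Caco2 WT (0.799 to 0.862) and 1.13 in PIWIL2 KO (1.09 to 1.16).

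**Figure D3:**
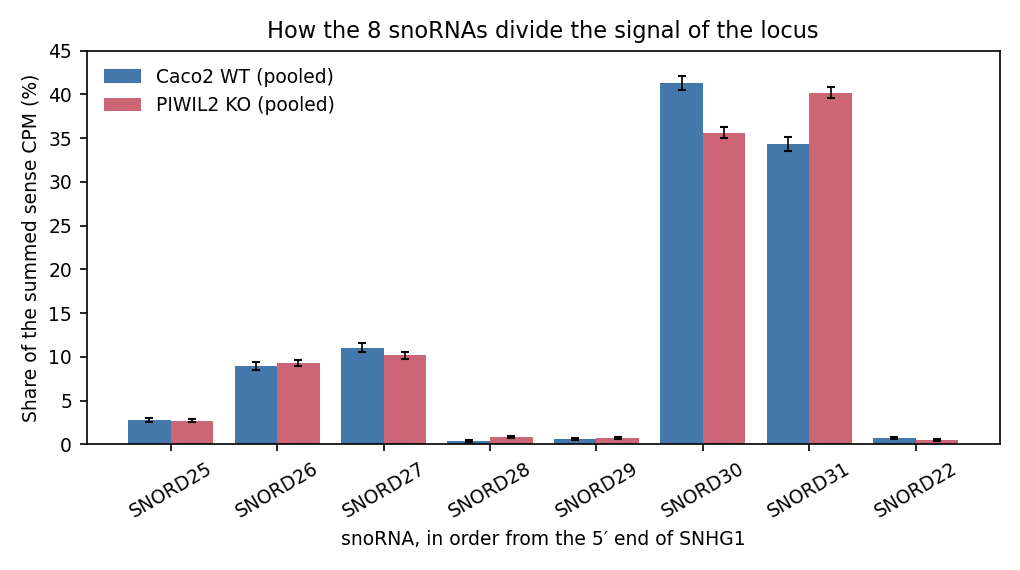
Share in percent of the summed sense CPM of the 8 snoRNAs that each of them took in Caco2 WT and PIWIL2 KO, in order from the 5′ end of SNHG1, with bars from 0 and exact 95% binomial counting intervals. SNORD30 took the largest share in Caco2 WT, 41.3%, and SNORD31 in PIWIL2 KO, 40.2%.

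Ratios between other members, which such scaling cannot move either, also differed in part between the genotypes. SNORD28 had 0.0341 times the CPM of SNORD27, which lies in the intron before it, in Caco2 WT (0.0255 to 0.0448) and 0.0824 times in PIWIL2 KO (0.0707 to 0.0954). The ratio of SNORD26 to SNORD27 was 0.805 (0.747 to 0.867) and 0.915 (0.863 to 0.971), with intervals that overlap slightly. SNORD22 had 1.24 times the CPM of SNORD29 (0.921 to 1.68) in Caco2 WT and 0.588 times (0.457 to 0.755) in PIWIL2 KO. For SNORD25 relative to SNORD26 the values were 0.308 (0.275 to 0.346) and 0.290 (0.264 to 0.317), with overlapping intervals. The pairs given above for Caco2 WT alone had ratios of 0.0213 (0.0182 to 0.0247) for SNORD29 to SNORD30 and 0.0111 (0.00906 to 0.0135) for SNORD22 to SNORD31 in PIWIL2 KO. The ratio of SNORD29 to SNORD28 was 1.52 (1.06 to 2.18) in Caco2 WT and 0.907 (0.735 to 1.12) in PIWIL2 KO. Of the 8 pairs compared, 5 had intervals that separated between the genotypes, and SNORD26 to SNORD27, SNORD25 to SNORD26 and SNORD29 to SNORD28 did not. The pairs were the neighbours along the gene and, besides, SNORD22 with SNORD29. They share members, and pairs of other SNORD rows were not compared, so this count has no background.

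GAS5 on chromosome 1 is another non-coding host gene with a series of snoRNAs in its introns, and it also gave 8 rows. The sum of its rows was 2100 CPM in Caco2 WT and, in PIWIL2 KO, 2116 CPM, a ratio of 1.01 (0.991 to 1.02), against 1.53 for the SNHG1 locus from the same pooled libraries. The median log2 ratio was 0.22 over the GAS5 members, 6 of which were higher, and none was 2-fold higher. The GAS5 ratios ran from 0.804 (0.686 to 0.945) for SNORD78 to 1.39 (1.21 to 1.59) for SNORD47, and SNORD28 and SNORD31 of SNHG1 had intervals wholly above that of SNORD47. They were not above every GAS5 interval. The scarce SNORD79, at 1.33 (0.882 to 2.01), and SNORD75, at 1.19 (0.256 to 5.99), had intervals that hold that of SNORD31. The SNORD75 interval also holds that of SNORD28. The remaining 52 SNORD rows, from many host genes, had a median log2 ratio of 0.87 over the 48 past the minimum, with 44 higher. Whether the loci differ beyond replicate error was not tested.

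Only SNORD rows outside the locus were searched for likeness to SNORD30 and SNORD31. By distance between the log2 values of the 2 genotypes, the nearest were, for both, SNORD74 of GAS5 and SNORD50A on chromosome 6. In Caco2 WT SNORD74 was listed at 658.87 CPM and in PIWIL2 KO at 741.01 CPM, a ratio of 1.12 (1.09 to 1.16). SNORD50A was listed at 304.77 and 339.89 CPM, also a ratio of 1.12 (1.07 to 1.16). Both had ratios nearer to 1 than SNORD30 and SNORD31, so the likeness is mainly one of level.

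**Figure D4:**
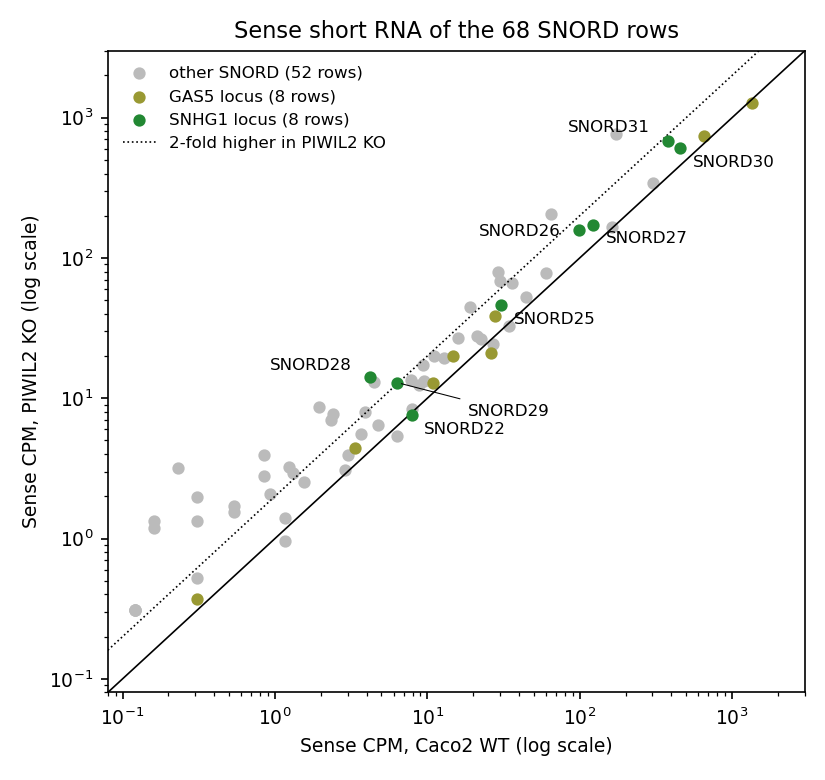
Sense CPM in Caco2 WT against PIWIL2 KO, both on log scales, for the 68 SNORD rows, with the SNHG1 and GAS5 loci in colour. The solid line marks equal values and the dotted line a 2-fold higher value in PIWIL2 KO, and of the SNHG1 members only SNORD28 and SNORD29 lie above the dotted line.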

How the data were processed

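The SE50 reads came from 6 short RNA libraries, 3 per genotype. Adapters had been removed by the authors with Cutadapt 1.15 and reads counted with piPipes (version not given in the sources used here), and the deposited CPM, sense and antisense, are scaled to reads uniquely mapped to hg19 in 4 columns pooled by genotype. Rows are named as 3′ UTRs, also where the transcript is non-coding, and all 688 non-coding rows lie on the minus strand.

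Symbols and lengths of 3382 rows came from RefSeq (GRCh38.p14, for names and lengths only), and 55 rows had no match. Sequences were read from GRCh37 with samtools 1.23.1, and copies were searched with BLAST 2.17.0. The worth of 1 read was the step that made the most low values (0.06 to 2 CPM) whole within 0.006 CPM, namely 76.5% in Caco2 WT and 72.6% in PIWIL2 KO, so read numbers are approximate. This step and the intervals were tried on simulated Poisson counts of 1 joined library per genotype. That trial did not cover averaged values or a spread between samples. Intervals used scipy 1.17.1 in Python 3.11.15. The text names all members, SNHG1, and the 2 SNORD rows outside the locus that were nearest to each of the 2 most abundant members. It also names the SNORD rows that bound the GAS5 range, SNORD44, SNORD75 and SNORD79 of GAS5, and SNORD17. These further rows were chosen after their values were seen. The members and lists were chosen with earlier results of these data known.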

Additional observations from a re-analysis of the deposited data

How the results depend on the processing

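No paired analysis was possible because each genotype has 1 pooled value, and for the same reason no replicate could be left out. The log2 ratio of the summed locus, 0.62, was 0.19 after rescaling to the summed sense CPM of all rows (a shift of -0.43), -0.012 after centring on the median SNORD row (a shift of -0.63), 0.75 without SNORD30 and, in settings chosen after seeing the data, 0.48 without SNORD31 and 0.61 without both. The 7 higher members became 6 under the rescaling, where SNORD30 turned to a log2 ratio of -0.024, and 4 under the centring, a setting chosen after seeing the data. The 2 members at least 2-fold higher became 5 at 1.5-fold, and 1 with a pseudocount of 1 CPM, also chosen after seeing the data. The minimum CPM and Wilson intervals left the counts as they were, and pseudocounts of 0.01 and 1 CPM kept each member's log2 ratio within its counting interval. Depth limits SNORD28, SNORD29 and SNORD22 most, at 54, 82 and 102 estimated reads in Caco2 WT.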
